A study of Mus musculus with 12 samples.

Results

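The genes for the proteasome, the particle that degrades ubiquitin-tagged proteins, were examined in HSCs of WT and Pon2-/- mice. Members were all genes with a symbol made of Psm, a letter from a to e and a digit, pseudogenes excluded, which gave 45 of the 49585 genes counted. This rule used no measured value, but it was set with earlier results of these data known. Counts were available for 6 WT and 6 Pon2-/- mice, both labelled as strain C57BL/6J and 10 to 14 weeks old. WT mice came from Charles River. Pon2-/- mice carried a β-geo gene trap vector with flanking loxP sites in Pon2 intron 2. The labels do not say that the genotypes were littermates, so genotype and origin of the mice cannot be told apart. Bone marrow cells that were Lin-, Sca1+, ckit+, CD135- and CD150+ were sorted, 10 cells per well and 8 wells per mouse, and reads are given per mouse. The labels call these cells LT-HSCs, and by the study's methods the gate also takes in MPP2 cells.

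The proteasome consists of a barrel-shaped core particle, which cuts proteins, and regulatory particles at its ends. The core is built of rings of alpha subunits, which gate the entrance, and rings of beta subunits, a few of which carry the active sites. In cells of the blood and immune system, and after interferon, the active-site subunits Psmb5, Psmb6 and Psmb7 can be replaced by Psmb8, Psmb9 and Psmb10, respectively, which yields the immunoproteasome. The regulatory particle has a base with ATPases that unfold substrates and a lid that removes ubiquitin. HSCs are known for low rates of protein synthesis and for their sensitivity to disturbed protein turnover.

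By role, the members comprised 7 alpha ring genes, 4 structural beta ring genes without an active site, Psmb1 to Psmb4, the 3 constitutive active-site genes and their 3 immunoproteasome counterparts. Regulatory particle genes were the 6 base ATPases, 3 other base genes, 8 lid genes and 3 chaperones of base assembly. The 4 Psme genes encode alternative activators of the core. Psma8 encodes an alpha subunit of the testis, and Psmb11 a beta subunit of the thymus. Psmc3ip shares the symbol stem but encodes a protein of meiotic recombination, and Psme2b is a near copy of Psme2.

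Total counts per mouse ranged from 12967791 to 24228280. Values are given as CPM, which are counts per 1000000 counts of the library after TMM scaling. Pon2 had 56.4 to 202 CPM in WT (median 105) and 1.16 to 33.1 CPM in Pon2-/- HSCs (median 29.9), without overlap (two-sided exact permutation test, p = 0.00216, the smallest that 6 against 6 samples allow). The edgeR log2 fold change was -2.13 with an adjusted p of 0.586, which missed the threshold. No proteasome gene lies on chromosome 6, which holds Pon2. The HSC markers Procr, Hlf and Mecom were present in every mouse, with 33.1 to 173, 274 to 382 and 176 to 339 CPM in WT and 88.4 to 174, 227 to 455 and 121 to 293 CPM in Pon2-/- HSCs, respectively. Correlations of log2 CPM between samples ranged from 0.613 to 0.702. As these are bulk samples, fewer cells of a type and less RNA per cell cannot be told apart.

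Markers of other cells varied among mice. The summed level of the 8 myeloid markers was 878 to 9743 CPM in WT and 843 to 14843 CPM in Pon2-/- HSCs, and that of the 10 proliferation genes was 759 to 2497 and 889 to 2858 CPM, with an unadjusted edgeR p under 0.05 for Mcm5 (log2 fold change 0.54). The sum of Flt3 and Cd48, which mark multipotent progenitors, was 27.2 to 109 CPM in WT and 88 to 268 CPM in Pon2-/- HSCs, and Cd48 had a log2 fold change of 1.68 (two-sided exact permutation test, p = 0.00433, edgeR adjusted p = 1.0). Summed levels were 173 to 238 and 107 to 266 CPM for the 6 megakaryocyte markers, 0 to 31.2 and 0.0463 to 40.5 CPM for the 5 macrophage markers, 25.5 to 319 and 58.8 to 542 CPM for the 7 B cell markers, and 0.0424 to 39.7 and 18.8 to 57.7 CPM for the 6 T cell markers, in WT and Pon2-/- HSCs, respectively. Among the T cell markers, Cd3e and Cd8a had no counts. Of the erythroid markers, Car1 and Ermap had no counts, whereas Hbb-bt had 6.11 to 38.1 CPM in WT and 0 to 1.11 CPM in Pon2-/- HSCs. Hbb-bt was the 1 of 4 tested erythroid markers without overlap between genotypes, compared to 0.633% of all tested genes. Its edgeR adjusted p was 0.265, which missed the threshold. Not all of the tested erythroid markers were lower in Pon2-/- HSCs. The part of these markers in the results below was not tested.

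Proteasome genes were expressed at levels well above the typical gene. Of the 45 genes, 43 had counts in all 12 mice and 44 passed the filter on low counts, against 11848 genes that passed in all. The median over the 44 genes of the mean CPM was 207, compared to 34.1 over all tested genes. The 45 genes together took 9887 to 12237 CPM in WT (median 11583) and 9183 to 11804 CPM in Pon2-/- HSCs (median 11211). The ranges of the genotypes overlapped, with the lowest mouse in Pon2-/- and the highest in WT.

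Levels of different genes were compared per kilobase, with the union of all annotated exons as length. In WT HSCs, the highest mean levels per kilobase were 351 ± 47.4 CPM for Psmb2, 336 ± 38.9 CPM for Psmb6 and 318 ± 57.5 CPM for Psme1 (SD, n = 6). Psmb2 is a structural beta subunit, Psmb6 carries the caspase-like site and Psme1 forms an interferon-inducible activator together with Psme2. Psmd3 of the lid had 17.8 ± 7.2 and Psmd1 of the base 22.4 ± 6.12 CPM per kilobase, the lowest levels among genes of the lid, the base and the core apart from Psma8 and Psmb11, with the base assembly chaperones not counted. The activators Psme3 (11.1 ± 3.68 CPM per kilobase) and Psme4 (4.95 ± 4.99 CPM per kilobase) were lower than these. The SDs of Psmb2, Psmb6 and Psme1 overlapped, so that their order is not resolved.

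The choice of length affects this order, since the exon union of some genes includes long rare exons. With the principal transcript as length, Psmb6 (787 CPM per kilobase), Psma7 (656) and Psme1 (632) came first, and 8 of the 10 highest genes were shared with the order by exon union. Within the roles, the highest and lowest genes by exon union were Psma6 (227 CPM per kilobase) and Psma3 (56.6) in the alpha ring, Psmb2 and Psmb3 (81.2) among structural beta subunits, Psmc5 (189.9) and Psmc2 (31.9) among ATPases, Psmd4 (97.2) and Psmd1 in the rest of the base, Psmd7 (127) and Psmd3 in the lid, and Psmd10 (61.1) and Psmd9 (13.5) among the assembly chaperones. Some of these change with the principal transcript as length. The highest alpha ring gene was then Psma7 (656), with Psma6 at 268, and the highest ATPase gene Psmc3 (257), with Psmc5 at 201. The lowest ATPase gene was then Psmc6 (67.4) and the lowest assembly chaperone Psmd5 (31.4). The other genes named here kept their places.

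**Figure D1:**
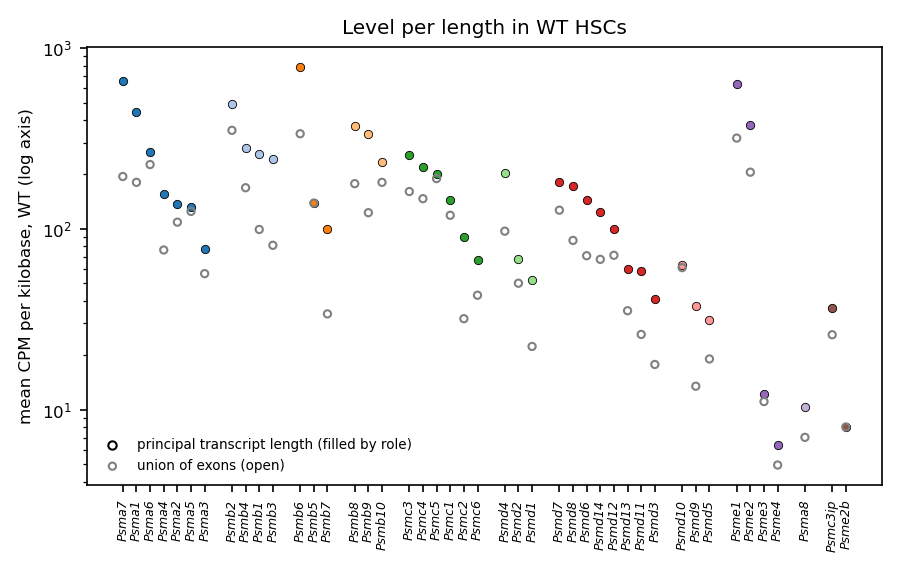
Mean CPM per kilobase in WT HSCs (n = 6 mice, log axis) for the 44 tested Psm genes in blocks by role, from left to right the alpha ring, structural beta, constitutive active-site, immunoproteasome, base ATPase, other base, lid, base assembly, activator, Psma8 and the genes that are no subunits. Filled points use the principal transcript and open points the exon union as length. Psme1 and Psme2 stand near the top and Psme3 and Psme4 near the bottom of the same block.

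Subunit genes also varied little between mice of a genotype. The biological coefficient of variation (BCV), the edgeR estimate of the spread between mice beyond counting error, had a median of 28.3% over the 44 genes and 73.1% over all tested genes. Part of this comparison follows the level, as the BCV falls with expression. Among genes with a mean of at least 100 CPM, the median was 26.2% for 35 proteasome genes and 30.8% for all 2244 genes. The smallest BCV values were those of Psmb1 (19.4%), a structural beta subunit, and of the alpha subunits Psma7 (19.5%) and Psma2 (20.9%). A BCV below 25% was found for 13 proteasome genes and 3.89% of all tested genes. A BCV above 50% was found for Psma8, Psme4, Psme2b, Psmd13, Psme3 and Psmc3ip and for 69.2% of all tested genes. For Psme2b, the SD of CPM was 21.5% of the mean in WT and 13.9% in Pon2-/- HSCs, far below its BCV of 79.1%. The BCV of this gene therefore does not describe how far its CPM spread between mice.

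**Figure D2:**
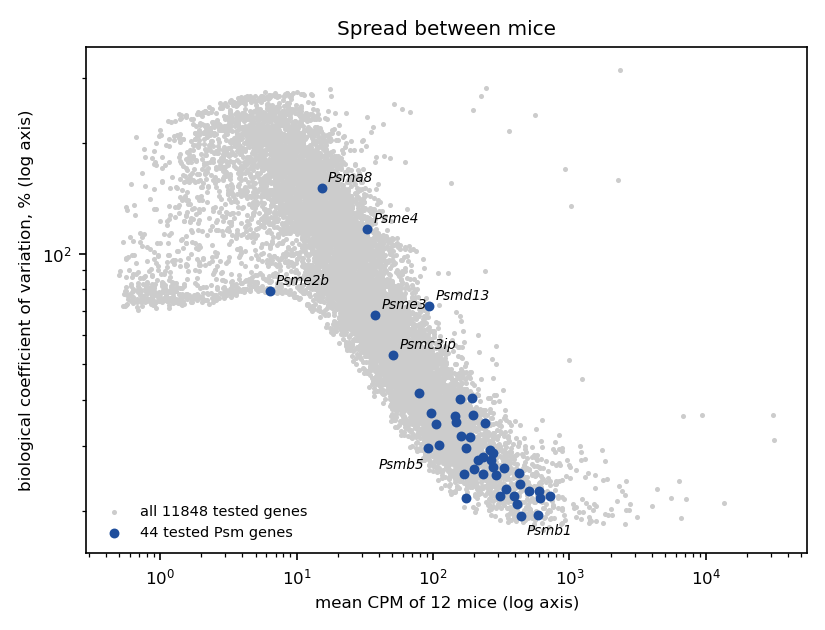
BCV (%, log axis) against mean CPM of the 12 mice (log axis) for all 11848 tested genes (grey) and the 44 tested Psm genes (blue). Most Psm genes lie at the lower right, where levels are high and the BCV is low, and Psma8 (151%) and Psme4 (117%) lie at the top of the blue points.

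Compared with WT, most proteasome genes differed little in Pon2-/- HSCs. With edgeR, 0 of 44 genes passed both thresholds, an adjusted p below 0.05 and a log2 fold change beyond 1 in either direction, against 24 genes or 0.203% of all tested genes. DESeq2 called 1 of them, Psmb5, against 1.19% of the 25444 genes with at least 1 count. Without Cook's cutoff, DESeq2 called the same gene, against 3.69%. Genes without an adjusted p are in both shares as not called. Limma voom called none of the 44 genes (0.194% of all tested genes). Psmb5 was also the 1 proteasome gene with an unadjusted edgeR p below 0.05, compared to 3.13% of all tested genes, the 1 with an exact permutation p below 0.05, compared to 5.87%, and the 1 with no overlap between genotypes, compared to 0.633% (0.245% in the direction of lower levels in Pon2-/- HSCs). By log2 fold change, 29 genes were lower and 15 higher in Pon2-/- HSCs, with a median of -0.06 (-0.009 over all tested genes, of which 50.8% were lower).

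The small differences came with narrow intervals. The absolute log2 fold change had a median of 0.14 for the 44 genes and 0.32 for all tested genes, and 37 of the 44 genes (84.1%) stayed within ±0.3, compared to 47.9% of all tested genes. For 36 genes, the 95% interval of the edgeR log2 fold change excluded a 2-fold change in either direction, compared to 25.5% of all tested genes. The other genes were Psmb5, Psmd10, Psmd13, Psme3, Psme4, Psma8, Psmc3ip and Psme2b, whose intervals reached a 2-fold change. The comparisons with all tested genes were not matched for level. The median of the mean CPM was 207 for the 44 genes and 34.1 for all tested genes, so the shares are no measure of stability at a given level.

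**Figure D3:**
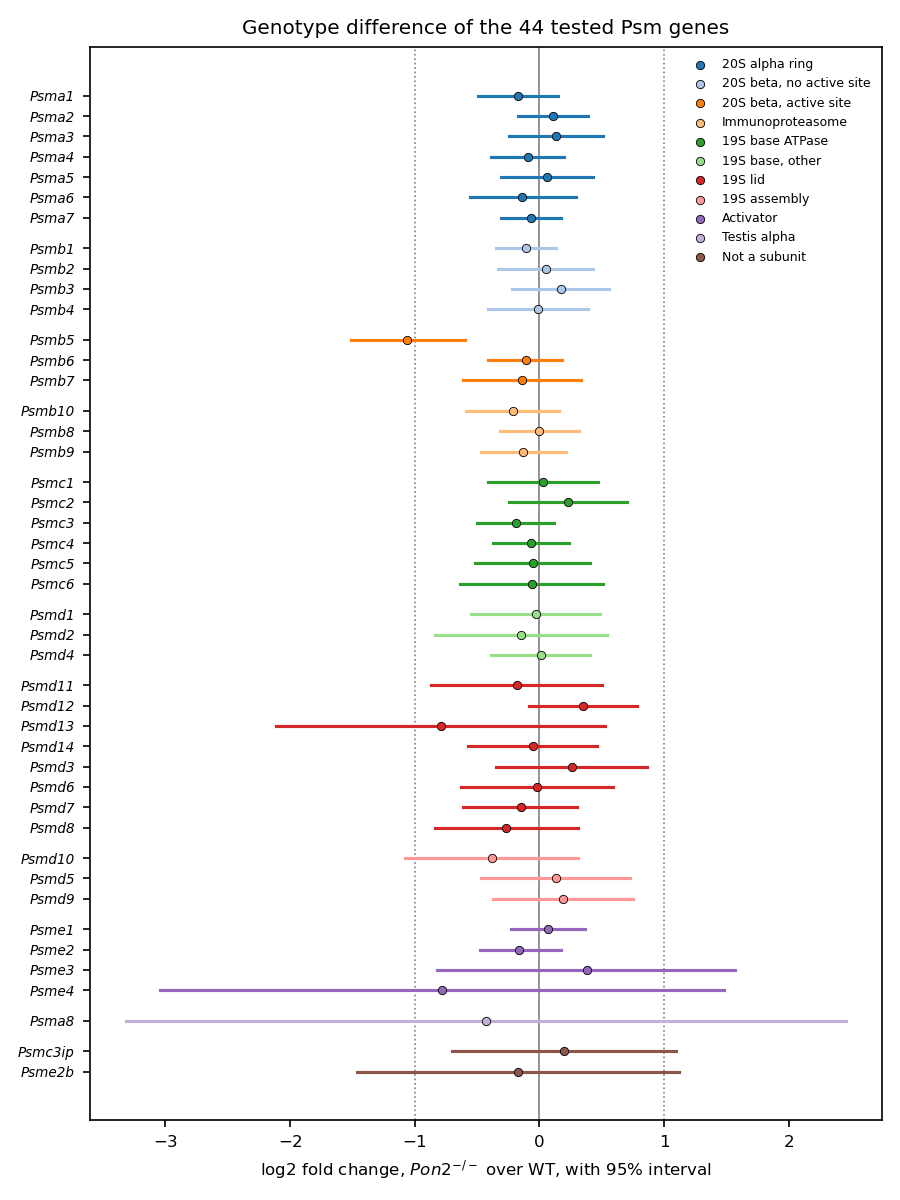
Log2 fold change of Pon2-/- over WT HSCs with its 95% interval from edgeR (n = 6 mice each) for the 44 tested Psm genes, coloured by role, with dotted lines at a 2-fold change. The interval of Psmb5, from -1.51 to -0.60, is the one that does not include 0.

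Psmb5 encodes the constitutive subunit with chymotrypsin-like activity, the main target of proteasome inhibitors such as bortezomib. It is listed as ENSMUSG00000022193.6 and is transcribed from the minus strand of chromosome 14, between 54614119 and 54618022 (GRCm38). In WT HSCs, Psmb5 had 78.7 to 167 CPM (median 125), and in Pon2-/- HSCs 47.4 to 73.4 CPM (median 59.7). Each of the 6 Pon2-/- mice lay below each of the 6 WT mice, the highest Pon2-/- value being 73.4 and the lowest WT value 78.7 CPM. Read counts behind these values ranged from 1006 to 3940 in WT and from 684 to 1382 in Pon2-/- HSCs. The WT mean of 125 ± 29.9 CPM compared with a Pon2-/- mean of 60.1 ± 10.1 CPM (SD, n = 6 mice per genotype), which was 51.9% lower (two-sided exact permutation test, p = 0.00216). In the edgeR test, the log2 fold change was -1.06 (SE 0.21), with an unadjusted p of 0.000222, rank 32 of 11848 genes, and an adjusted p of 0.0822 that missed the threshold. The call depended on the tool and on 1 library. The adjusted p was 3.15e-06 with DESeq2 and 0.107 with limma voom, and 0.0288 with edgeR without WT replicate 4 (0.214% of all tested genes called), which has the lowest WT level of Psmb5 and the smallest library. Across every alternative fit, adjusted p-values of Psmb5 lay between 1.11e-06 and 0.368.

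Relative to the genes whose products share the core with it, Psmb5 was also lower in Pon2-/- than in WT HSCs. CPM were not divided by length here, so the shares compare genotypes and not genes. The CPM of Psmb5 amounted to 25.7% to 46.7% of the mean of the other 13 constitutive core genes in WT (median 35.1%) and to 15.8% to 22.2% in Pon2-/- HSCs (median 17.1%). The genotypes did not overlap by this measure, which was chosen after the values were seen and does not depend on the scaling of libraries. The measure contains Psmb5 and is no separate evidence for the difference of this gene. A pair of processed pseudogenes resembles its transcript, Gm3375 with 98.9% and Psmb5-ps with 91.8% identity, and neither had a count in any mouse. These counts do not show what became of reads that match both Psmb5 and a copy. Of 30 tested genes within 1 Mb of Psmb5, 18 were lower in Pon2-/- HSCs, with a median log2 fold change of -0.09. An unadjusted edgeR p below 0.05 was found for 5 of the 30, compared to 3.13% of all tested genes, namely Gm43305, Slc7a8, Irf9, Dad1 and Haus4. No overlap of the genotypes was found for 2 of the 30, compared to 0.633% of all tested genes, namely Gm43305 (log2 fold change -8.43) and Slc7a8 (2.87). The part of this region in the level of Psmb5 was not tested. Psme1 and Psme2 lie in the same window, with log2 fold changes of 0.07 and -0.16.

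The sequences before the start of Psmb5 and Psmb6, both genes of constitutive active-site subunits, are shown because the former differed between genotypes and the latter stayed close to WT. They are the bases of the RefSeq promoter window (GRCm38.p6) outside the annotated gene, 5′ to 3′ on the strand of the gene. Capitals mark a match to TGACNNNGC, the core of the antioxidant response element through which Nfe2l2 and Nfe2l1 act.
Psmb5, chr14:54618023-54618245, minus strand: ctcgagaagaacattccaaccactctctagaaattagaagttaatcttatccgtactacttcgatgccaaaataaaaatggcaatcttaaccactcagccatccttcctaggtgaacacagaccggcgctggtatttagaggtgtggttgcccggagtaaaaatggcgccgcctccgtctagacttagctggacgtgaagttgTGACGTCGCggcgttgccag
Psmb6, chr11:70525107-70525356, plus strand: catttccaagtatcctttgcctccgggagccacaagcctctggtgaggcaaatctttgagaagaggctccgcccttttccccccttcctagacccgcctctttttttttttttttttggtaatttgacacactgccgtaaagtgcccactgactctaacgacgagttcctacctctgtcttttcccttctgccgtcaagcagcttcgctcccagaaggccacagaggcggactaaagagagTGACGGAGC

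The match began 47 bases before the RefSeq start of Psmb5 and 9 bases before that of Psmb6. In windows of 250 bases before to 50 bases after the start, searched on both strands, TGACNNNGC occurred in 6 of 38 proteasome genes with an entry (15.8%), namely Psmb5, Psmb6, Psmc6, Psmd12, Psmd9 and Psme4, and in 14% of 27025 genes. A pair of GAAA repeats with NN between them, a core of interferon response elements, occurred in 4 of 38 (10.5%), namely Psmb3, Psmd4, Psmd9 and Psme1, and in 3.99% of all genes. Psmd9 held both, at positions that did not overlap. These matches describe letters and not binding.

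The other constitutive active-site genes were similar in both genotypes. Psmb6 had 502 to 701 CPM in WT (median 632) and 491 to 769 CPM in Pon2-/- HSCs (median 539), with a log2 fold change of -0.11 (SE 0.14, 95% interval -0.41 to 0.18). Psmb7, which carries the trypsin-like site, had 75.3 to 157 CPM in WT (median 123) and 89.2 to 133 CPM in Pon2-/- HSCs (median 98.6), with a log2 fold change of -0.14 (SE 0.22, 95% interval -0.61 to 0.33). The genotypes overlapped widely for both genes.

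The immunoproteasome genes were expressed in HSCs of both genotypes. Psmb8, the counterpart of Psmb5, had 499 to 712 CPM in WT (median 586) and 483 to 821 CPM in Pon2-/- HSCs (median 594). Its mean was 603 CPM in both, with a 95% interval of the log2 fold change from -0.32 to 0.32. Psmb9, the counterpart of Psmb6, had 339 to 623 CPM in WT (median 416) and 329 to 485 CPM in Pon2-/- HSCs (median 430.0), with a log2 fold change of -0.13 (95% interval -0.47 to 0.21). Psmb10, the counterpart of Psmb7, had 239 to 365 CPM in WT (median 316) and 152 to 309 CPM in Pon2-/- HSCs (median 290.2), with a log2 fold change of -0.21 (95% interval -0.59 to 0.16). For all 3 genes the samples of the genotypes overlapped.

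**Figure D4:**
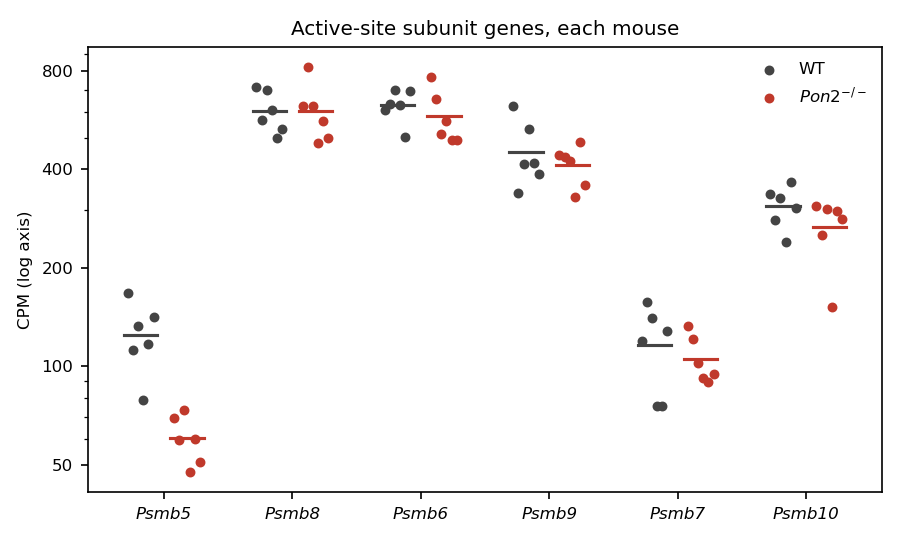
CPM (log axis) of the constitutive active-site genes and, to the right of each, of the immunoproteasome counterpart, with 1 point per mouse (WT grey, Pon2-/- red, n = 6 each) and a line at the mean. The points of Psmb5 separate, with WT at 78.7 to 167 and Pon2-/- at 47.4 to 73.4 CPM, and the points of the other 5 genes overlap.

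Accordingly, the balance of immunoproteasome to constitutive transcripts differed for 1 of the 3 positions in the ring. The log2 ratio of Psmb8 to Psmb5, on the scale of CPM per kilobase, was 0.00 to 1.04 in WT (mean 0.38 ± 0.36) and 1.18 to 1.87 in Pon2-/- HSCs (mean 1.41 ± 0.25, SD, n = 6 each). The genotypes did not overlap, with a difference of 1.02. This ratio contains Psmb5 and is no separate evidence for it. The log2 ratio of Psmb9 to Psmb6 was -1.46 ± 0.39 in WT and -1.45 ± 0.30 in Pon2-/- HSCs, and that of Psmb10 to Psmb7 was 2.46 ± 0.49 and 2.32 ± 0.38. Both of these overlapped between genotypes. The absolute ratios rest on the length used. With the principal transcripts as length, the mean log2 ratio of Psmb8 to Psmb5 was 1.44 in WT and 2.46 in Pon2-/- HSCs, and that of Psmb10 to Psmb7 was 1.28 and 1.14, while the differences between genotypes stay the same by construction.

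Among the 7 alpha ring genes, Psma2, Psma3 and Psma5 had log2 fold changes above 0 and the other 4 below 0, all between -0.17 and 0.13. Their sum was 2076 to 2550.0 CPM in WT (median 2414) and 2135 to 2536 CPM in Pon2-/- HSCs (median 2306). For each of the 7 genes the 95% interval excluded a 2-fold change. Psma7 had 535 to 686 CPM in WT (median 593) and 486 to 641 CPM in Pon2-/- HSCs (median 589). Psma2 had 314 to 469 CPM (median 412) and 356 to 528 CPM (median 413). Both genes are among the 3 with the lowest BCV, and Psma6 spread more widely, with 177 to 346 CPM in WT and 177 to 339 CPM in Pon2-/- HSCs.

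The 4 structural beta genes had log2 fold changes between -0.11 and 0.17 and a sum of 1201 to 1553 CPM in WT and 1104 to 1726 CPM in Pon2-/- HSCs. Psmb1 had 416 to 488 CPM in WT (median 452) and 365 to 489.9 CPM in Pon2-/- HSCs (median 410.4), with a log2 fold change of -0.11 (SE 0.11). Psmb2 had 327 to 482 CPM (median 447) and 259.8 to 534 CPM (median 480.0). As in the alpha ring, the 95% intervals of all 4 genes excluded a 2-fold change.

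In the regulatory particle, the 6 ATPase genes of the base summed to 1328 to 1923 CPM in WT (median 1503) and 1258 to 1735 CPM in Pon2-/- HSCs (median 1484), with log2 fold changes from -0.19 to 0.23. Psmc5 had 132 to 338 CPM in WT (median 295) and 187 to 329 CPM in Pon2-/- HSCs (median 246). Psmc2, at the upper end of the fold changes, had 115 to 204 CPM (median 164) and 131 to 247 CPM (median 192). The other base genes, the scaffolds Psmd1 and Psmd2 and the ubiquitin receptor Psmd4, had log2 fold changes of -0.03, -0.15 and 0.01. Of the base genes, all 9 had 95% intervals that excluded a 2-fold change.

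The 8 lid genes had log2 fold changes from -0.79 to 0.35 and a sum of 1225 to 1812 CPM in WT (median 1478) and 1133 to 1683 CPM in Pon2-/- HSCs (median 1456). Psmd14, the deubiquitinase of the lid, had 123 to 240.2 CPM in WT (median 194) and 114 to 317 CPM in Pon2-/- HSCs (median 164). Its log2 fold change was -0.05 (SE 0.24). Psmd12, a scaffold of the lid, had 125 to 253 CPM in WT (median 189) and 176 to 328 CPM in Pon2-/- HSCs (median 232). Its log2 fold change was 0.35 (SE 0.20, 95% interval -0.08 to 0.78, two-sided exact permutation test, p = 0.108).

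Psmd13 had a larger but unresolved difference. It had 43.9 to 178 CPM in WT (median 131) and 2.63 to 115 CPM in Pon2-/- HSCs (median 83.9), with overlap. The log2 fold change was -0.79 (SE 0.61, 95% interval -2.11 to 0.53, two-sided exact permutation test, p = 0.165). The lowest value, 2.63 CPM or 38 counts, was that of Pon2-/- replicate 4, and without this library the log2 fold change was -0.54. Psmd13 overlaps Sirt3 on the opposite strand, which had 30078 counts in WT and 32563 in Pon2-/- HSCs. Reads of such overlaps cannot be told apart in libraries without strand.

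The 3 assembly chaperones Psmd5, Psmd9 and Psmd10, which bind free ATPases before the base is complete, had log2 fold changes of 0.13, 0.19 and -0.38. Psmd10, known as gankyrin, had 56.4 to 141 CPM in WT (median 85.4) and 33.1 to 114 CPM in Pon2-/- HSCs (median 69.1), and its 95% interval reached from -1.08 to 0.31. The genotypes overlapped for each of these genes.

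The activators split by spread. Psme1 and Psme2 form the interferon-inducible activator and had 572 to 923 and 260.1 to 479 CPM in WT and 607 to 855 and 254 to 370.1 CPM in Pon2-/- HSCs, with log2 fold changes of 0.07 (SE 0.14) and -0.16 (SE 0.15). Psme3, a nuclear activator, had 15.3 to 45.8 CPM in WT (median 34.3) and 3.88 to 75.2 CPM in Pon2-/- HSCs (median 46), with a log2 fold change of 0.38 (SE 0.56). Psme4, which promotes the degradation of acetylated histones, had 0.424 to 117 CPM in WT (median 31.1) and 0.114 to 50.9 CPM in Pon2-/- HSCs (median 25.1), with a log2 fold change of -0.78 (SE 1.05). Its lowest values were 10 counts in WT replicate 1 and 2 counts in Pon2-/- replicate 3. The 95% interval of the log2 fold change was -0.82 to 1.57 for Psme3 and -3.04 to 1.48 for Psme4, so that a 2-fold increase of either gene and a 2-fold decrease of Psme4 lay within it.

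The tissue-restricted members were low. Psma8 had 0 to 35.3 CPM in WT (median 14.4) and 0 to 35.9 CPM in Pon2-/- HSCs (median 6.94), with 0 counts in WT replicate 1 and Pon2-/- replicate 2. A count of 0 allows up to 3 counts, or 0.127 and 0.129 CPM in these libraries, by counting error alone. In the other 10 mice it had 114 to 614 counts. Psmb11 had 1 count in WT replicate 4 and none elsewhere, and was not tested. Psme2b had 4.92 to 8.93 CPM over all 12 mice and is 99.4% identical to Psme2 over the aligned bases, so that its counts may be reads of Psme2. Psmc3ip had 12.2 to 80.6 CPM in WT and 22.5 to 75.7 CPM in Pon2-/- HSCs.

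**Figure D5:**
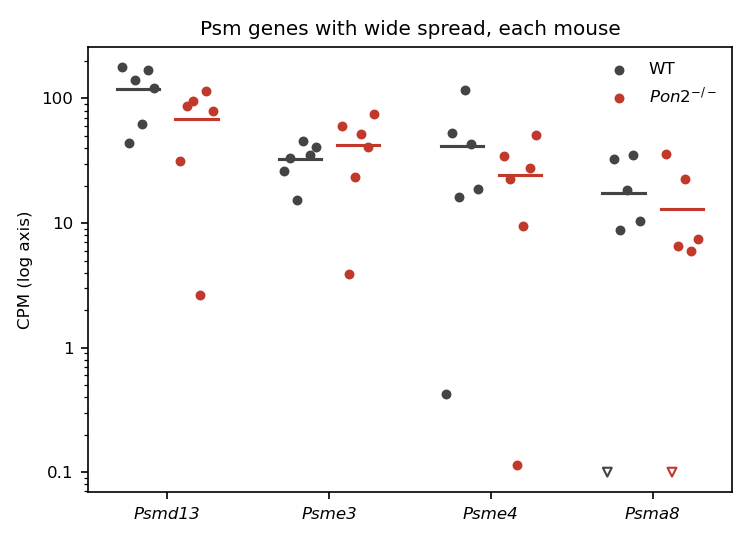
CPM (log axis) of Psmd13, Psme3, Psme4 and Psma8, with 1 point per mouse (WT grey, Pon2-/- red, n = 6 each) and a line at the mean. Open triangles at the lower edge are mice with 0 counts. Single mice lie far below the rest of their genotype, such as 2.63 CPM for Psmd13, 3.88 CPM for Psme3 and 0.114 CPM for Psme4 in Pon2-/- HSCs.

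Genes that act with the proteasome varied in the size of their differences, from a log2 fold change of -1.09 (SE 0.94) for Ubqln2 to 0.75 for Nfe2l2. Of 33 genes for further subunits, core assembly, inhibitors and adaptors, deubiquitinases, ubiquitin shuttles, ubiquitin precursors, unfoldases and transcriptional control, 33 were tested and 0 were called by edgeR. Over all tested genes, edgeR called 0.203%. The log2 fold change was above 0 for 16 and below 0 for 17, with a median of -0.02. An unadjusted edgeR p below 0.05 was found for 3.13% of all tested genes and for 1 of the 33. The latter was the antioxidant regulator Nfe2l2, with 81.2 to 171 CPM in WT and 141 to 251 CPM in Pon2-/- HSCs (log2 fold change 0.75, two-sided exact permutation test, p = 0.0108, edgeR adjusted p = 0.834). Pomp, an assembly chaperone of the beta ring, had 291 to 471 CPM in WT (median 310.1) and 225 to 344 CPM in Pon2-/- HSCs (median 306), with a log2 fold change of -0.22 (SE 0.16). Nfe2l1, the transcription factor that raises proteasome genes when the proteasome is inhibited, had 10.7 to 59.6 CPM (median 32.9) and 17.3 to 43.7 CPM (median 38.6). The genotypes overlapped for all 33 genes, and 0.633% of all tested genes had no overlap.

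Some members share sequence or position with other genes. Processed pseudogenes at least 90% identical to their transcripts exist for 14 members, 23 copies in all. Of these copies, 5 had no count and none exceeded 687 counts over the 12 mice. Whether reads that match both a member and its copy were counted cannot be told from these values. Besides Psmd13, the genes Psmb9, Psmb7, Psmc3, Psmc3ip and Psme1 overlap a counted gene on the opposite strand, namely Tap1, Nek6, Slc39a13, Mlx and Emc9, of which Emc9 had the fewest counts (2369 in WT and 1563 in Pon2-/- HSCs). Psma4, Psma5, Psmd1 and Psmd3 overlap opposite genes with at most 150 counts in a genotype. Without strand, the reads of all these overlaps are uncertain.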

How the data were processed

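The authors prepared Smart-seq2 libraries, which carry no strand information, trimmed reads with Trimmomatic 0.36, mapped them to GRCm38.p5 with STAR 2.5.3a and counted them on GENCODE M12 genes. The deposited values are whole-number counts per gene and mouse, without normalization, and this column was read as STAR's count without regard to strand. Names, positions and lengths came from GENCODE M21, which gave 49326 of 49585 genes a symbol. Promoter windows came from RefSeq.

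Genotypes were compared with edgeR 4.0.16 in R 4.3.3 (TMM scaling, filterByExpr, quasi-likelihood F-test with genotype alone in the model, Benjamini-Hochberg over all 11848 tested genes). A call needed an adjusted p below 0.05 together with a log2 fold change beyond 1 in either direction. Single genes were also compared with two-sided exact permutation tests of log2 CPM (prior count 2) over all 924 relabellings. Sums and ratios over genes got no test. The edgeR and limma fits were also run on simulated counts with the same spread for every gene, below the median BCV of 73.1% over all tested genes. That run does not measure error rates at the spread of these data. Copies were found with minimap2 2.31-r1302 (at least 90% identity over 50% of the copy). Alternatives were DESeq2's size factors, other filters, DESeq2 1.42.0, limma 3.58.1 voom, robust estimation, a replicate block, other prior counts, other lengths and leaving out each mouse.

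The members and the lists of roles, related genes and markers were chosen with earlier results of these data known. Genes named with values were the 6 active-site genes, genes that were called, had an unadjusted p below 0.05 or did not overlap between genotypes, the highest and lowest gene per length of each role, genes with 0 counts or untested, and the 3 genes with the largest and smallest BCV. Psmd12, Psmd13, Psme3 and other members named beside these were chosen after their values were seen. Total counts of 12967791 to 24228280 per mouse set the depth, and PCR copies were not separated from molecules. Some values of the HSC and erythroid marker lists are not reported here.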

Additional observations from a re-analysis of the deposited data

Results flagged for a closer look

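In each genotype, the highest and the lowest mouse of each tested proteasome gene were compared with the nearest of the others by Dixon's ratio. Of 88 groups of 6 mice, 8 held a mouse that stood apart, where chance flags about 1 in 20 groups, or 4.4. Psme4 had 0.424 CPM in WT replicate 1 (others 16.1 to 117) and 0.114 CPM in Pon2-/- replicate 3 (others 9.43 to 50.9). Psma8 had 0 CPM in WT replicate 1 (others 8.83 to 35.3) and 0 CPM in Pon2-/- replicate 2 (others 5.92 to 35.9). In Pon2-/- replicate 4, Psmd13 had 2.63 CPM (others 31.4 to 115) and the immunoproteasome gene Psmb10 had 152 CPM (others 252 to 309). The base ATPase gene Psmc6 had 68.4 CPM in Pon2-/- replicate 2 (others 144 to 171). The structural beta gene Psmb4 had 440 CPM in Pon2-/- replicate 1 (others 278 to 323), the 1 case of a mouse above the rest. Psmb5 had no such mouse in either genotype. Why these mice differ was not tested.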

How the results depend on the processing

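Of 612 results of alternatives, 586 kept their direction and their side of the threshold, or moved by less than the spread between mice. The number of proteasome genes called was 1 with DESeq2, with and without Cook's cutoff, and 0 to 1 when single mice were left out, the called gene being Psmb5 each time. Its log2 fold change was -1.05 in both DESeq2 fits (adjusted p = 3.15e-06 and 1.11e-06) and -1.16 to -0.95 without single mice (adjusted p = 0.0288 to 0.252), reaching the threshold without WT replicate 4 (-1.16). The exact permutation p of Psmb5 without single mice was 0.00216 to 0.00433. The number of genes with an unadjusted p below 0.05 was 1 to 2, with Psmd12 added without WT replicate 1. The log2 fold change of Psmb8, close to 0, changed sign with DESeq2's size factors (0.01), without a filter (0.00), in both DESeq2 fits (0.01) and without single mice (-0.11 to 0.05). The difference of mean log2 CPM without single mice ranged from -1.73 to 0.43 for Psme4 and from -0.25 to 0.60 for Psme3. For Pon2, adjusted p-values were 0.586 with edgeR, and 0.0104 and 0.00464 in the DESeq2 fits (log2 fold change -2.13). They were 0.0295 to 0.918 with edgeR without single mice, below the threshold without Pon2-/- replicate 5 alone (-1.88). The causes of these changes were not tested. Correlations of same-numbered deviations from the genotype mean were 0.000932 to 0.043, and replicate 2 was the 1 number that correlated best with itself. Whether the replicate numbers pair the mice cannot be told from these values. With a replicate block, 0 genes were called, 1 had an unadjusted p below 0.05, the median log2 fold change was -0.09, and Psmb5 had -1.03 (adjusted p = 0.368). Low counts limit Psmb11 and Psme2b, and the spread between mice limits Psma8, Psme3, Psme4 and Psmd13.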
